A study of Saccharomyces cerevisiae with 134 samples.

Results

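The genes described here are 10 budding yeast genes for cyclins and for transcription factors of the cell cycle: CLN1, CLN2, CLN3, CLB1, CLB2, CLB5, CLB6, PCL1, SWI4 and SWI5. They were picked by their gene IDs, and all 10 were found among the 6692 genes of the RNA tables and the 5355 genes of the tables of trimethylated lysine 36 of histone H3 (H3K36me3). Cells were of the BY4741 background and grown at 30 °C to an OD600 between 0.8 and 1.0. The courses used set2Δ cells expressing LANS-Set2, a Set2 fusion that enters the nucleus in blue light and leaves it in darkness, in SC−LEU medium. They were kept in blue light of 500 µW/cm2 and moved to the dark (sampled at 0, 30, 60 and 90 min), or kept in the dark and moved to light (0, 20, 40 and 60 min). H3K36me3 ChIP-seq covered both courses and a light to dark course in set2Δ rph1Δ cells expressing LANS-Set2, with 3 libraries per time point. RNA-seq covered both set2Δ courses with 3 libraries per time point, except 2 at 60 min of light, and 3 wild-type (WT) and 3 rph1Δ libraries grown in YPD without LANS-Set2. The promoter that drives LANS-Set2 is not given in the sources used here. Nothing states that replicate libraries came from different cultures, and p-values therefore speak only to the spread between these samples, which may be technical. The tests also pool that spread over genes, and genes share shifts of whole libraries. A small p therefore does not come from the libraries of a single gene alone.

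Cyclins bind and activate cyclin-dependent kinases, and yeast cyclins are made in waves through the division cycle. Cln3 acts first and helps free the transcription factor SBF, whose DNA-binding subunit is Swi4, and SBF and the related factor MBF then switch on CLN1, CLN2, PCL1, CLB5 and CLB6 at the entry into the cycle. The mitotic cyclin genes CLB1 and CLB2 and SWI5 are transcribed later through Mcm1 and forkhead proteins, and Swi5 enters the nucleus as mitosis ends. Set2 travels with elongating RNA polymerase II and methylates H3K36 over transcribed genes, and Rph1 is a demethylase of that residue. The cultures were not described as synchronised, so each value is an average over cells at all stages. In such bulk samples fewer cells at a stage and less RNA per cell cannot be told apart.

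Whole-table facts that touch these values are few. Levels are in TPM, a share of each library scaled to gene length. The 6 WT and rph1Δ libraries held 9295949 to 14334963 estimated reads. The courses were deeper: reads recovered from the TPM steps were between 16022537 and 29032861 over 11 libraries of the course into light, and between 10551857 and 27652694 over 12 of the course into dark. RPH1, the deleted gene, had 2792 reads over the 3 WT libraries and 3 over the 3 rph1Δ libraries. The 7 genes of a cells ranged from 5.27 to 6521 TPM and the 4 genes of alpha cells from 0 to 13.4 TPM, the pattern of a MATa strain such as BY4741, and the 5 genes of meiotic cells reached at most 5.14 TPM. LEU2 was at 0.0429 to 0.323 TPM in the WT and rph1Δ libraries and at 173 to 304 TPM in the courses, where reads of a selectable marker and of the gene cannot be told apart. Medium, strain and table all differ between the WT and rph1Δ libraries and the courses, so levels set side by side across them cannot be assigned to any of these. No culture kept unswitched was sampled over the same times here, so time in the course and the switch cannot be told apart either.

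The 10 genes are placed here by the R64 annotation of RefSeq, with coding spans that equal the lengths in the deposited files. CLB1 (YGR108W, VII 703636 to 705051, + strand) and CLB6 (YGR109C, VII 705359 to 706501, − strand) are neighbours that point towards each other, with 307 bases between their coding spans. CLB2 (YPR119W, XVI 771653 to 773128, + strand) and CLB5 (YPR120C, XVI 773875 to 775182, − strand) form a second such pair, 746 bases apart. In each pair a mitotic cyclin faces an S phase cyclin. The other genes are CLN1 (YMR199W, XIII 662644 to 664284, + strand), CLN2 (YPL256C, XVI 64977 to 66614, − strand), CLN3 (YAL040C, I 65778 to 67520, − strand), PCL1 (YNL289W, XIV 87897 to 88736, + strand), SWI4 (YER111C, V 382595 to 385876, − strand) and SWI5 (YDR146C, IV 748613 to 750742, − strand). None of the 10 overlaps another annotated gene. Aligned coding bases were identical at 64.9% in CLN1 and CLN2, 67.4% in CLB1 and CLB2 and 61.5% in CLB5 and CLB6, and no pair shared a run of 50 bases.

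The 1000 bases before each start codon were searched on both strands for the letters of 3 elements known from the cell cycle: CACGAAA (bound by SBF), ACGCGT (bound by MBF) and GTAAACAA (bound by forkhead factors). CACGAAA was in 12.7% of the 5996 windows of all genes and in 3 of the 10 (CLN1, CLN2 and PCL1). ACGCGT was in 8.51% of windows and in 4 of the 10 (CLN1, CLB2, CLB6 and SWI4), and GTAAACAA was in 7.69% and in 4 of the 10 (CLN1, CLB1, CLB6 and SWI5). ACGCGT reads the same on both strands and was counted once, and matches of different elements did not overlap. A match is a description of the letters only. The windows of 30 bases shown next are those of CLB2, SWI4 and PCL1, whose RNA values the results turn on, and of CLN2, CLB6, CLB1 and SWI5 as members of the G1, S phase and mitotic waves, read 5′ to 3′ on the strand of the gene, with the matched letters in capitals (TTTCGTG and TTGTTTAC are the element read from the other strand).
PCL1, CACGAAA: acgaacaagaaTTTCGTGttaaaaatcgcg
CLN2, CACGAAA, farther match: caacggaagtaCACGAAAttcgtcccgctg
CLN2, CACGAAA, nearer match: cgtgttctagtCACGAAAcgcgccaaaaac
SWI4, ACGCGT: gcgtttgaagtgACGCGTcactaaccatga
CLB2, ACGCGT: agatcgccttctACGCGTtttatgctatga
CLB6, ACGCGT, farther match: aatagcagttttACGCGTaccacaaaattt
CLB6, ACGCGT, nearer match: atttaacgaccaACGCGTattcttcgcgtt
CLB1, GTAAACAA: ggcacgaccttTTGTTTACaaccgcccaaa
SWI5, GTAAACAA: ttaggaaaaagGTAAACAAtaacaatacct
The PCL1 window is chrXIV:87559-87588 (+ strand), with the match 327 bases before the start codon. Those of CLN2 are chrXVI:67177-67206 and chrXVI:67134-67163 (− strand), 581 and 538 bases before it. The third CLN2 match, 999 bases before the start, is not shown. The SWI4 window is chrV:386367-386396 (− strand, 508 bases before) and that of CLB2 is chrXVI:770702-770731 (+ strand, 939 bases before). The CLB6 windows are chrVII:706887-706916 and chrVII:706861-706890 (− strand, 403 and 377 bases before). The CLB1 window is chrVII:702996-703025 (+ strand, 629 bases before), and that of SWI5 is chrIV:751025-751054 (− strand, 301 bases before).

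In WT cells the RNA of the G1 cyclin CLN2 was the highest of the 10, at 43.4, 42.1 and 41.7 TPM. PCL1, a cyclin of the kinase Pho85, followed at 34.3, 33.5 and 37.4 TPM. The mitotic cyclin CLB2 had 27.7, 27.7 and 25.6 TPM. These 3 genes did not overlap each other. CLN3 came next at 24.3 ± 1.95 TPM (SD, n = 3), overlapping both CLB2 above it and CLN1 at 23.1 ± 0.698 TPM below it. CLB1 (16.3 ± 2.18) and SWI5 (16.1 ± 0.360) overlapped each other, SWI4 was lower at 13.1 ± 0.625, and the S phase cyclins CLB5 (9.86 ± 0.995) and CLB6 (8.97 ± 0.400) were lowest and overlapped. In the courses PCL1 had the highest mean of the 10, 58.7 TPM over the 11 dark to light libraries and 64.1 TPM over the 12 light to dark libraries, and CLB5 and CLB6 were again lowest, at 11.97 and 8.25 TPM and at 12.6 and 9.95 TPM. CLB1 was near CLN2 there, at 51.1 TPM against 48.7 in dark to light and 50.1 against 57.6 in light to dark.

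The ratio of the mitotic cyclin transcripts differed between the sets of libraries. CLB1 TPM divided by CLB2 TPM ran from 0.532 to 0.733 in WT and from 0.537 to 0.639 in rph1Δ, so CLB2 was the more abundant of the pair in every library grown in YPD. It ran from 1.38 to 1.63 in the 11 dark to light libraries, all with more CLB1 than CLB2, and from 0.910 to 1.91 in the 12 light to dark libraries. The ranges in YPD and in the courses did not overlap. The ratio of CLN1 to CLN2 also shifted without overlap, from 0.506 to 0.568 over WT and rph1Δ and from 0.603 to 0.726 over both courses, while that of CLB6 to CLB5 overlapped (0.739 to 1.04 and 0.544 to 1.05). Strain, medium and table differ together here, and no test was made. How often the ratios of other gene pairs separate in this way was not counted.

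The comparison of rph1Δ with WT asks how loss of the demethylase gene affects RNA. CLB2 fell and the other 9 did not pass the threshold, an adjusted p under 0.05 by edgeR's quasi-likelihood test with Benjamini-Hochberg adjustment over all genes tested. That is 1 of 10, where 12.3% of the 6088 genes tested passed and 2.83% passed as lower. CLB2 had 24.6, 24.2 and 23.2 TPM in rph1Δ against the WT values given above. All 3 rph1Δ libraries lay below all 3 WT libraries. The share of all genes whose WT and rph1Δ libraries do not overlap was not counted. Its log2 change was -0.18 ± 0.05 (SE), with adjusted p = 0.0191 by edgeR. The call was lost without WT replicate 2 (adjusted p = 0.0844), without rph1Δ replicate 2 (0.0774) or without rph1Δ replicate 3 (0.0643), and with DESeq2 in place of edgeR (0.0670), while the change stayed between -0.16 and -0.21 in all of these fits and in the others that left out a library.

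The other 9 members did not pass, although 5 of the 10 had an unadjusted p under 0.05 in the edgeR test, as 25.5% of genes did. SWI5, which encodes the factor that starts early G1 genes, had 16.02, 16.5 and 15.9 TPM in WT and 14.9, 13.7 and 14.8 TPM in rph1Δ. SWI4 had 13.5, 13.4 and 12.4 TPM in WT and 11.4, 12.3 and 12.1 TPM in rph1Δ. Neither gene's groups overlapped, a separation not counted over all genes. The log2 changes were -0.17 ± 0.06 (edgeR adjusted p = 0.0577) and -0.14 ± 0.05 (edgeR adjusted p = 0.0730). CLB1, the partner of CLB2, had 15.4, 14.8 and 18.8 TPM in WT and 14.0, 13.0 and 14.8 TPM in rph1Δ, where WT replicate 3 stood highest and the groups overlapped. Its log2 change was -0.24 ± 0.09 (edgeR adjusted p = 0.101). Without WT replicate 1, CLB1 passed beside CLB2, where 698 of 6104 genes passed. Without rph1Δ replicate 3, SWI5 and CLB1 passed and CLB2 did not, where 598 of 6093 genes passed. CLN2 had 44.3, 47.4 and 45.1 TPM in rph1Δ, all above the WT libraries, with a log2 change of 0.09 ± 0.04 (edgeR adjusted p = 0.1503). CLN3, CLN1, PCL1, CLB5 and CLB6 had overlapping groups and log2 changes between -0.13 and 0.09, with adjusted p-values from 0.343 to 0.869. Over the 10 genes 7 changes were below 0 and 3 above, with a median of -0.09 beside -0.01 over all genes tested.

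**Figure D1:**
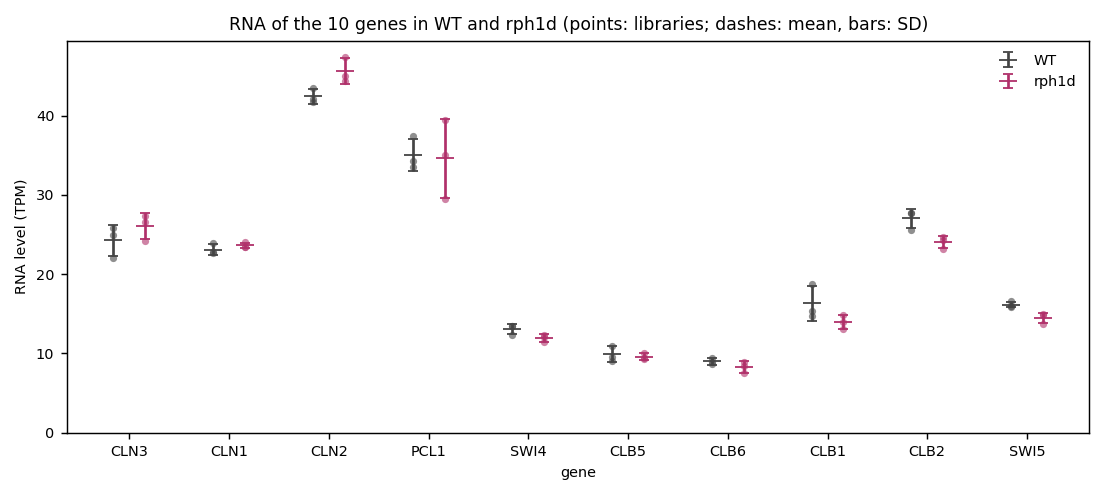
RNA level in TPM (y axis) of the 10 genes (x axis) in 3 WT and 3 rph1Δ libraries. Points are libraries, dashes group means and bars SD. The CLB2 libraries of rph1Δ, 23.2 to 24.6 TPM, all sit below those of WT, 25.6 to 27.7 TPM, and those of CLN2 all sit above WT.

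Of 131 other cell cycle genes in 10 lists, 17 passed in rph1Δ by edgeR (7 higher, 10 lower), a share of 13.0% beside 12.3% over all genes. The balance differed: 7.63% were lower beside 2.83% of all genes, and 5.34% were higher beside 9.46%. The 131 genes had a median log2 change of -0.06. The 18 other cyclins and kinase partners had 3 higher and 0 lower. They included PCL5, another Pho85 cyclin (64.8 ± 3.77 TPM in WT and 84.8 ± 4.79 in rph1Δ, SD, n = 3; log2 change 0.37), and SSN8, the cyclin of the Mediator kinase module (0.46). Among the 5 kinase inhibitors and tyrosine kinase genes PHO81, an inhibitor of Pho85, rose by 0.25, and among the 11 G1/S regulators BCK2, an activator of G1 transcription, rose by 0.19 (not past the threshold with DESeq2, adjusted p = 0.0536). Of the 14 genes of mitotic exit and anaphase, CDC53, the cullin of the SCF ubiquitin ligase, rose by 0.30 and no other gene of the list passed.

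Among the targets of the factors described here, 3 of 28 G1/S genes driven by SBF and MBF fell and 0 rose (2 of 28 called with DESeq2), where 2.83% of all genes were called lower, among them the septin-associated kinase gene GIN4 (26.4 ± 0.948 to 23.1 ± 0.861 TPM, SD, n = 3; log2 change -0.20) and the cell wall gene SRL1 (-0.27). Of the 10 M/G1 targets of Mcm1 and Yox1 the replication licensing gene CDC6 fell by 0.22 and no other gene passed (with DESeq2 its adjusted p was 0.124). Of the 10 S phase histone genes 3 fell and 0 rose, including HHF2 (-0.17) and HHT2 (-0.18), which encode histones H4 and H3 and have a close copy elsewhere in the genome. Of 7 G2/M and M/G1 factors FKH1, a forkhead factor, fell by 0.16 (25.9 ± 0.356 to 23.4 ± 0.266 TPM, SD, n = 3), a call lost with DESeq2 (adjusted p = 0.144). None of the 20 other genes of the CLB2 cluster passed in edgeR's test (5 at an unadjusted p under 0.05 and 0 passed with DESeq2), with a median of -0.06. The adjusted p-values of the genes named lay between 6.71e-05 and 0.0417 by edgeR.

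In the dark to light course, which restores nuclear Set2, SWI4 rose and the other 9 genes did not pass by limma on log2(TPM + 1) at any time. SWI4 had 17.2, 18.4 and 16.8 TPM at 0 min, 20.2, 18.9 and 19.2 TPM at 20 min, 21.0, 20.9 and 21.7 TPM at 40 min, and 20.3 and 21.7 TPM at 60 min. All later libraries lay above those at 0 min. How often RNA groups separate in this way over all genes was not counted in either course. Its log2 change was 0.15 ± 0.05 at 20 min (limma adjusted p = 0.493), 0.27 ± 0.05 at 40 min (adjusted p = 0.0311) and 0.25 ± 0.06 at 60 min (adjusted p = 0.0875, 2 libraries). At 40 min that is 1 member of 10, where 3.79% of 5907 genes passed and 3.54% passed as higher. At 20 min 0.0169% of genes passed and at 60 min 0.0508%, with 0 members each time by limma. At an unadjusted p under 0.05 there was 1 member at 20 min (9.01% of genes) and there were 2 at 60 min (19.6% of genes), and edgeR on recovered reads called 0 members at both times. Of the 131 genes in the cell cycle lists 2 passed at 40 min, both higher: XBP1, a repressor of G1 cyclin genes (5.65 to 9.12 TPM; log2 change 0.62), and RME1, a repressor of meiosis (44.6 to 56.9 TPM; 0.34).

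The SWI4 call at 40 min needed all 3 replicates. Without replicate 1, 2 or 3 its limma adjusted p was 0.158, 0.181 or 0.204, at log2 changes of 0.26, 0.31 and 0.23. The count over all genes then went from 224 to between 0 and 6. The split of calls over all genes moved with the scaling, from 209 higher and 15 lower to 160 higher and 222 lower with TMM factors at 40 min, and from 3 higher and 0 lower to 23 and 60 at 60 min. SWI4 stayed higher and past the threshold with them (0.18 ± 0.05, adjusted p = 0.0467) and in edgeR on recovered reads (0.19 ± 0.05, adjusted p = 0.0467). The authors' deposited table for 40 min lists 687 genes, among them SWI4 with a log2 value of -0.16 and an adjusted p of 0.0269. The sign of the authors' values was opposite to the change in TPM in 1654 of 1654 genes compared over their 6 tables, so that value too stands for a higher level at 40 min.

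Other members of the G1 group stayed within their spread in light. CLN3 had 33.7, 33.4 and 25.6 TPM at 0 min and 32.1, 34.3 and 30.5 TPM at 40 min, and CLN2 had 53.5, 49.6 and 43.2 TPM and 49.9, 50.0 and 47.7 TPM. Replicate 3 was lowest at 0 min in both genes, and the groups overlapped. PCL1 ranged from 50.1 to 65.2 TPM over the course and CLN1 from 28.4 to 35.3 TPM. The S phase cyclin CLB6 had 8.37, 7.65 and 7.82 TPM at 0 min and 9.14 and 8.85 TPM at 60 min, without overlap and with a log2 change of 0.16 ± 0.07 (limma adjusted p = 0.223). The mitotic genes were flat: CLB2 ranged from 32.7 to 37.0 TPM, CLB1 from 46.1 to 54.8 and SWI5 from 29.3 to 32.7. The medians of the 10 log2 changes were 0.04, 0.07 and 0.06 at 20, 40 and 60 min, beside 0.04, 0.10 and 0.08 over all genes.

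After the switch to dark, which removes nuclear Set2, no member passed by limma at any time. The largest change was that of PCL1. It had 45.3, 55.6 and 60.9 TPM at 0 min, 62.6, 71.8 and 62.8 TPM at 30 min, 52.7, 71.1 and 68.3 TPM at 60 min, and 63.4, 77.4 and 77.0 TPM at 90 min. Replicate 1 was lowest at each time, and the 90 min libraries all lay above those at 0 min. The log2 change at 90 min was 0.43 ± 0.14 (limma adjusted p = 0.189), where 1.95% of 5884 genes passed. Without replicate 1 it was 0.40 and passed (limma adjusted p = 0.0366), in a fit where 415 of 5875 genes passed, 361 of them higher. The authors' deposited table for 90 min lists 313 genes, among them PCL1 with a log2 value of -0.29 and an adjusted p of 0.0176, with the sign turned as above. No other member is in their tables.

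Replicate 1 of this course stood apart at several members. CLB1 had 33.7 TPM in it at 0 min against 54.1 and 49.1 TPM in the others, and CLB5 had 10.4 against 14.1 and 14.3. CLB6 was highest in replicate 1 at every time, at 12.8 TPM against 9.06 and 8.96 at 60 min. The log2 changes at 90 min were 0.27 ± 0.19 for CLB1 and -0.23 ± 0.17 for CLB6 (limma adjusted p = 0.614 and 0.629), with overlapping groups. SWI4 had 22.6, 20.5 and 18.3 TPM at 0 min and 19.5, 19.6 and 17.5 TPM at 90 min, also overlapping, with a change of -0.11 ± 0.10 (limma adjusted p = 0.700). CLN1, CLN2, CLN3, CLB2, CLB5 and SWI5 had changes between -0.04 and 0.12 at 90 min. At 30 min 0% of genes passed by limma and at 60 min 0.306%, with 0 members at an unadjusted p under 0.05 at both times and 1 at 90 min, beside 2.45%, 7.09% and 13.8% of genes. The edgeR test on recovered reads also called 0 members at the 3 times, and none of the 131 listed cell cycle genes passed by limma in this course (3, 7 and 18 at an unadjusted p under 0.05, which is 2.29%, 5.34% and 13.7% of them).

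**Figure D2:**
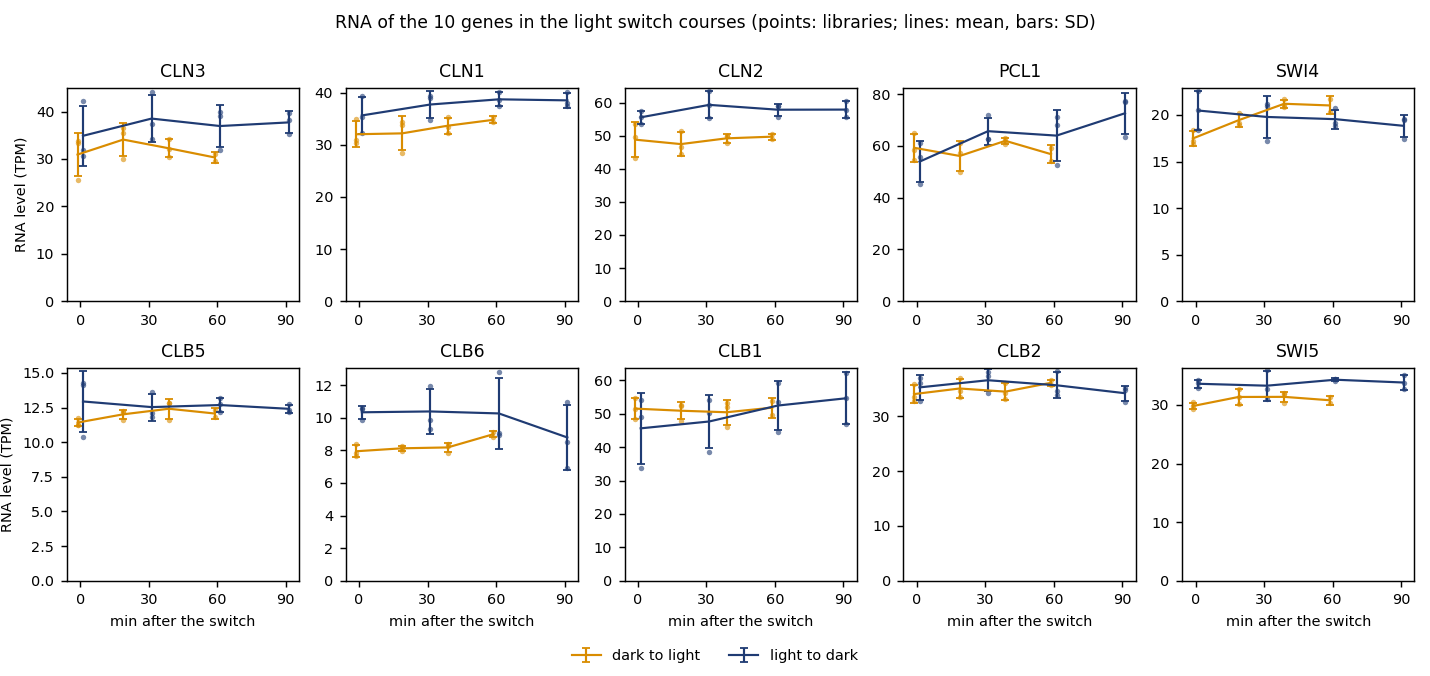
RNA level in TPM (y axes, from 0) against minutes after the switch (x axes) for the 10 genes in the dark to light and light to dark courses. Points are libraries, lines join group means and bars are SD (n = 3, 2 at 60 min of light). SWI4 goes from 16.8 to 18.4 TPM at 0 min to 20.9 to 21.7 TPM at 40 min of light, and PCL1 reaches 63.4 to 77.4 TPM at 90 min of dark.

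The change of each gene over the light to dark course was tested against that over the dark to light course by a limma interaction over both tables. SWI4 had a difference of -0.37 ± 0.12 (log2, dark at 90 min minus light at 60 min, limma adjusted p = 0.275) and PCL1 of 0.49 ± 0.18 (limma adjusted p = 0.384). Both were below an unadjusted p of 0.05, as 9.14% of genes were, and neither passed, and 0.441% of 5900 genes did, 19 above 0 and 7 below (49 and 7 with TMM factors). CLB6 had -0.39 ± 0.20 (limma adjusted p = 0.571). The other 7 genes had differences between -0.13 and 0.26. Times differ between the courses, so the test compares last time points rather than matched ones.

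**Figure D3:**
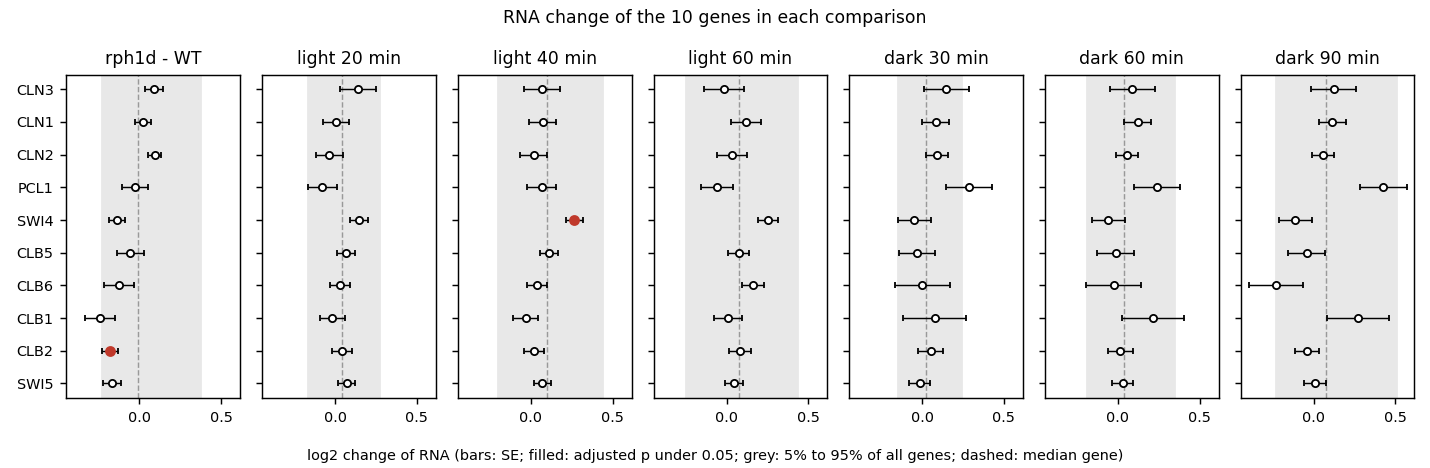
Log2 change of RNA (x axes) of the 10 genes (rows) in rph1Δ against WT and at each time after the switch against 0 min. Bars are SE, filled points passed the adjusted threshold, the grey band holds 5% to 95% of all genes and the dashed line is the median gene. Filled points are CLB2 in rph1Δ (-0.18) and SWI4 at 40 min of light (0.27).

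How alike members were over the 23 course libraries is given as a description, by Pearson correlation of log2(TPM + 1) centred on each course, among 5416 genes. Libraries share depth, time and replicate, and no p is given. CLB1 and PCL1 followed each other (0.725), as did CLN1 and CLN2 (0.698), CLB2 and CLB6 (0.635) and SWI4 and SWI5 (0.597), while CLB1 and CLB6, neighbours on chromosome VII, ran opposite (-0.646). Replicate 1 of the light to dark course was lowest for both CLB1 and PCL1 and highest for CLB6 at each time. The closest gene outside the members was LPL1 for CLB1 (0.932), SPC24 for CLB5 (0.885), YOX1 for CLN2 (0.880), MSC7 for PCL1 (0.873), DSF2 for SWI4 (0.864) and FMP42 for CLN3 (0.842). It was KRR1 for CLB6 (0.810), SPC98 for CLB2 (0.801), ATP3 for CLN1 (0.773) and MSK1 for SWI5 (0.746). SWI5 was among the steadiest transcripts, with 0.203% of genes having a lower SD over these libraries and 3.23% a lower SD than CLB2. CLB1 and PCL1 varied most of the 10, with 70.7% and 68.5% of genes below them.

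H3K36me3 rose over all 10 genes after the switch to light, by limma on log2 of the signal with time as a number, where 99.9% of 4816 genes passed as higher. The deposited signal has no stated unit, and its scaling between libraries and to gene length is not given in the sources used here, so its level is followed within a gene and not ranked between genes. PCL1, the shortest of the 10 with 840 coding bases, gained it fastest. Its signal was 0.0193, 0.0196 and 0.0183 at 0 min, 0.0476, 0.0518 and 0.0680 at 20 min, 0.0796, 0.0981 and 0.108 at 40 min, and 0.108, 0.118 and 0.159 at 60 min. No 2 neighbouring times overlapped up to 40 min. The mean at 60 min was 6.72 times that at 0 min, against 4.02 times at the median gene, and 98.9% of genes had a lower ratio. Its slope was 2.41 ± 0.19 log2 units per hour (SE; limma adjusted p = 2.68e-18), beside a median of 1.87 over all genes.

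The mitotic cyclins stood on opposite sides of the median gene. CLB1 had 0.0493, 0.0646 and 0.0667 at 0 min and 0.261, 0.289 and 0.368 at 60 min, 5.08 times the mean at 0 min, with a slope of 2.24 ± 0.22. CLB2 had 0.0948, 0.115 and 0.119 at 0 min and 0.312, 0.352 and 0.400 at 60 min, 3.24 times the mean at 0 min, with a slope of 1.64 ± 0.21, the lowest of the 10. The late times lay above 0 min in every library of both genes. CLN1 (2.15 ± 0.21), CLN2 (2.00 ± 0.21) and CLB5 (1.91 ± 0.18) were above the median slope, and CLN3 (1.82 ± 0.21), SWI5 (1.78 ± 0.21), SWI4 (1.76 ± 0.19) and CLB6 (1.75 ± 0.16) were below it. By the ratio of the 60 min mean to the 0 min mean, CLB6 was instead above the median gene (4.18 against 4.02). CLN3, SWI5 and SWI4 were below it by that ratio too (3.67, 3.58 and 3.68). SWI4, whose RNA rose in this course, had a mark of 0.0371, 0.0406 and 0.0392 at 0 min and 0.122, 0.144 and 0.163 at 60 min. All 114 tested genes of the cell cycle lists rose as well, with a median slope of 1.90. The largest limma adjusted p of the 10 members was 2.30e-11, and in all 10 genes the 60 min libraries lay above the 0 min libraries, as they did in 99.5% of all genes.

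After the switch to dark the mark fell over all 10 genes, where 99.6% of 4813 genes passed as lower by limma. In all 10 the 90 min libraries lay below the 0 min libraries, as in 98.3% of genes. CLB5, an S phase cyclin gene, had 0.0985, 0.134 and 0.104 at 0 min, 0.0579, 0.0736 and 0.0715 at 30 min, 0.0399, 0.0508 and 0.0569 at 60 min, and 0.0349, 0.0454 and 0.0404 at 90 min. Each of the 0 min libraries was above all later ones. The 90 min mean was 35.8% of that at 0 min, beside 43.7% at the median gene, and CLB6 was close to it at 35.9%. CLB5 fell by 0.89 ± 0.10 log2 units per hour and so did CLN2 (-0.89 ± 0.08), which went from 0.262, 0.315 and 0.248 to 0.0966, 0.113 and 0.110. CLB6 (-0.84), PCL1 (-0.81) and CLB2 (-0.81) were also steeper than the median slope of -0.75. SWI4 fell most slowly, from 0.185, 0.216 and 0.198 to 0.0842, 0.102 and 0.0972, which is 47.4% of the mean at 0 min and a slope of -0.70 ± 0.08. CLB1 (-0.77), CLN3 (-0.77), CLN1 (-0.76) and SWI5 (-0.75) lay near the median, and the largest limma adjusted p of the 10 was 5.23e-09. All 113 tested genes of the cell cycle lists fell too, with a median slope of -0.79.

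In set2Δ rph1Δ cells the mark also fell over all 10 genes in the dark, where 97.4% of 4815 genes passed as lower by limma. Replicate 3 was the highest library in 40 of 40 combinations of gene and time, and the median over all genes was also highest in it, 0.244 at 0 min against 0.167 and 0.176. In the set2Δ courses replicate 3 was highest in 32 of 40 in light, and replicate 2 in 34 of 40 in dark. The part of replicates in the results was not tested apart from the fits that leave out a replicate or add a replicate block. CLB2 had 0.552, 0.571 and 0.730 at 0 min and 0.274, 0.262 and 0.462 at 90 min. SWI5 had 0.434, 0.430 and 0.529 at 0 min and 0.207, 0.209 and 0.361 at 90 min. In all 10 genes the 90 min libraries lay below the 0 min libraries, as they did in 83.8% of all genes. The slopes ran from -0.51 ± 0.19 at CLB6 to -0.62 ± 0.17 at CLN2, around a median of -0.55 over all genes, with limma adjusted p-values from 0.00164 to 0.00812. Those p-values rest on a spread pooled over genes, which share the shift of replicate 3. Without replicate 2 no member passed by limma (adjusted p-values from 0.0987 to 0.121, slopes from -0.43 to -0.58) and 3 genes did in all.

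The slope in set2Δ rph1Δ minus that in set2Δ was above 0 for all 10 genes, meaning slower loss without RPH1. Over all genes percentile 5 of this difference was 0.05, so at least 95% of genes were above 0 too. No member and no gene passed by limma's interaction test (0% of 4712 genes). The smallest adjusted p among the members was 0.547, and 0 members and 119 of all genes had an unadjusted p under 0.05. CLB6 had the largest difference of the 10, 0.33 ± 0.20 per hour, and CLN1 the smallest, 0.15 ± 0.18. The median of the 10 was 0.24, beside 0.20 over all genes with a median SE of 0.19. CLB6 kept 53.9% of its 0 min mean at 90 min in set2Δ rph1Δ and 35.9% in set2Δ, and CLN1 kept 51.9% and 43.8%. The median gene kept 53.4% and 43.7%. The courses come from separate tables, so their levels are not compared. With a replicate block, a pairing the labels do not give, 2056 genes passed for the slope difference. Without the block 0 to 26 genes passed on leaving out a replicate.

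**Figure D4:**
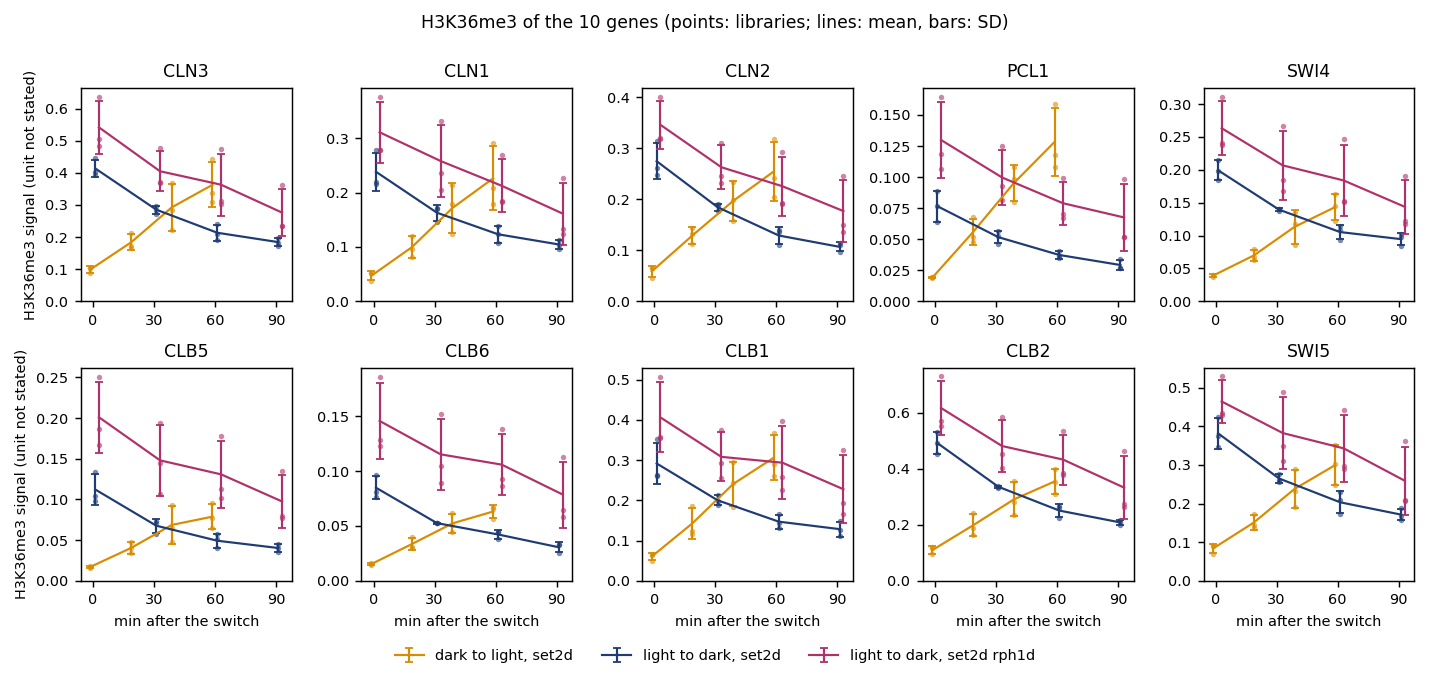
H3K36me3 signal (y axes, from 0; unit not stated) against minutes after the switch (x axes) for the 10 genes in 3 courses. Points are libraries, lines join means of 3 and bars are SD. The signal goes up at every gene in light and down at every gene in both dark courses; courses come from separate tables, so their heights are not to be set against each other.

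Slopes were also taken relative to the library median, by centring each library on its median. On this scale the slope of the median gene was -0.10 in light, 0.04 in dark and 0.006 in set2Δ rph1Δ. The calls below are therefore not against the median gene. In light PCL1 was steeper than the library median (0.45 ± 0.12 per hour, limma adjusted p = 0.00880), where 14% of genes passed as higher. By limma CLB2 (-0.32 ± 0.09, adjusted p = 0.00674), CLB6 (-0.22 ± 0.08, 0.0412), SWI4 (-0.21 ± 0.05, 0.00225) and SWI5 (-0.18 ± 0.07, 0.0313) were shallower, where 37% of genes passed as lower. For CLB6 this depended on the measure, as its ratio of means at 60 min (4.18) was above that of the median gene (4.02). These 5 of 10 members stand beside 51.1% of genes called in either direction. CLB1 at 0.28 ± 0.13 did not pass (limma adjusted p = 0.0878). In the dark course of set2Δ cells SWI4 was shallower than the library median (0.09 ± 0.03, limma adjusted p = 0.0293), as were 14% of genes. CLN2 was steeper (-0.10 ± 0.03, limma adjusted p = 0.0294), as were 5.65% of genes. In either direction 19.6% of genes passed. SWI4 was the only member of the 10 that passed as shallower than the library median in both directions of the switch. The share of all genes that did so was not counted. In set2Δ rph1Δ no member differed from the library median past the threshold by limma, where 1.39% of genes did, with 0 members at an unadjusted p under 0.05.

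**Figure D5:**
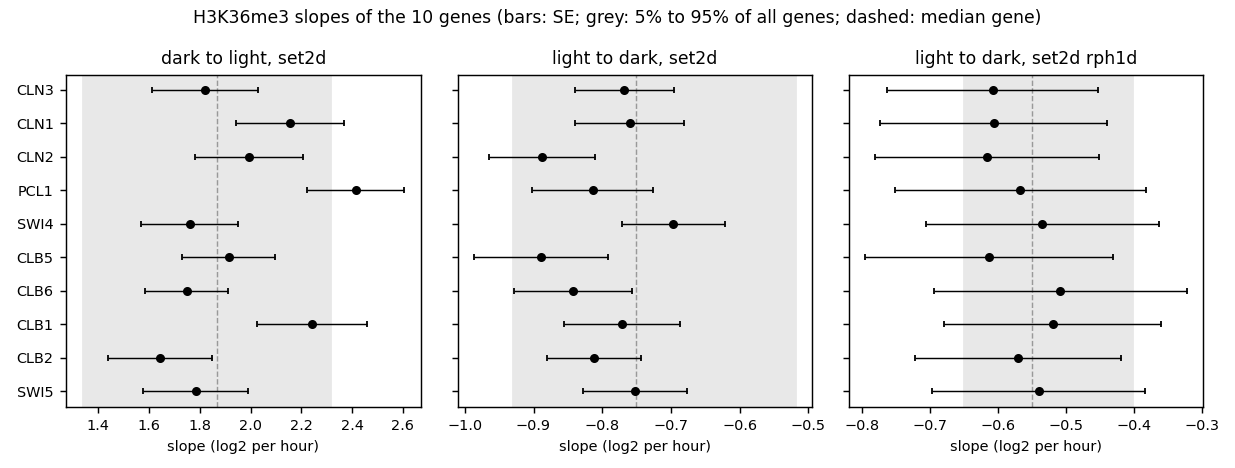
Slope of H3K36me3 in log2 units per hour (x axes) of the 10 genes (rows) in each course. Bars are SE, the grey band holds 5% to 95% of all genes and the dashed line is the median gene. PCL1 is at 2.41 and CLB2 at 1.64 per hour in light; SWI4 is at -0.70 and CLB5 and CLN2 at -0.89 per hour in dark.

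The authors' deposited tables of models over each course gave the same directions for the members where a trend was listed. In the model named ZOIBeta the trend was positive for 10 of 10 in light, with estimates from 4.93 to 5.77, where it was positive for 96.2% of the 5347 genes listed. It was negative for 10 of 10 in both dark courses, from -2.79 to -2.51 in set2Δ and from -2.63 to -2.34 in set2Δ rph1Δ, where 79.1% of genes were negative in each. In the model named ZINeg the trend was positive for 9 and listed as zero for 1 in light (positive for 86.9% of genes), and negative for 8 and zero for 2 in the dark (negative for 62.8%). In set2Δ rph1Δ it was listed as zero for all 10 by that model, as for 96.4% of genes. The time unit of these estimates is not given in the sources used here, so they are not set beside the slopes.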

How the data were processed

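RNA-seq and H3K36me3 ChIP-seq values were used as deposited. Each WT and rph1Δ library had estimated counts and TPM by the authors with Salmon, per the file headers. The courses had TPM per gene and H3K36me3 signal per gene, both deposited by the authors as tables with 1 column per library. How the signal was computed, its scaling and any use of a spike-in are not given in the sources used here, and the depth behind it is unknown. The authors' deposited tables of changed genes hold log2 fold changes, p-values and a test score, with DESeq2 column names per the file headers, and the deposited model tables hold estimates from models named ZOIBeta and ZINeg. The submitters' processing notes name, with no role or order, Salmon 0.8.1 and DESeq2 1.14.1 (under R 3.3.1), the read tools cutadapt 1.12 and bcl2fastq 2.20.0, STAR in versions 2.5.4b and 2.5.2b, deepTools 2.5.4, bedtools 2.26, SAMtools in versions 1.3.1 and 1.31, and the builds sacCer3 and ASM294v2. Samples of H3, inputs and other ChIP libraries were not analysed here.

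Estimated counts were rounded and tested with edgeR 4.0.16 (quasi-likelihood test, TMM) in R 4.3.3. TPM was tested on the log2(TPM + 1) scale with limma 3.58.1, leaving out genes whose mean TPM was under 1, so fold changes of low genes are understated. The signal was tested the same way on the log2 scale against time in hours, after adding a pseudocount (the median of its table multiplied by 0.1) and leaving out genes below percentile 10. Genes were called at a Benjamini-Hochberg adjusted p under 0.05 over all genes tested, and the same limma and edgeR fits gave every adjusted p in the text except those credited to DESeq2 or the authors. Low TPM values were whole multiples of what 1 read is worth in 100% of those checked (within 0.05), which gave recovered reads for an alternative in edgeR. Scripts were tested on simulated data. Libraries were grouped by their labels, and no pair of replicates agreed within sampling noise. The counts of 1 of the 10 gene lists and 1 of the sequence elements searched are not reported here. The members and lists were chosen with earlier results of these data known. Besides the members and RPH1, the text names from each list and RNA comparison the 2 called genes with the smallest p, and for each member the gene with the most similar RNA course among those averaging 5 TPM or more. Alternatives were DESeq2 1.42.0, other scalings, pseudocounts and filters, untransformed signal, a replicate block, and leaving out each replicate.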

Additional observations from a re-analysis of the deposited data

How the results depend on the processing

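Counts here are members past the threshold. In rph1Δ against WT, DESeq2 gave 0 and the fits that left out a library gave 0 to 2, with other scaling or no filter at 1. At 40 min of light the count was 0 in each fit that left out a replicate and 1 in every other alternative. At 90 min of dark it was 0 to 1 on leaving out a replicate, with PCL1 passing without replicate 1. H3K36me3 slopes gave 10 in each course under other pseudocounts, no filter and untransformed values. In set2Δ rph1Δ leaving out a replicate gave 0 to 10, with 0 without replicate 2, and 3 to 4718 genes in all. Centring each library on its median, which turns a slope into one relative to the library median, gave 5 in light, 2 in dark and 0 in set2Δ rph1Δ. By that construction signs turned in light for CLN3 (-0.15), CLB2 (-0.32), CLB5 (-0.053), CLB6 (-0.22), SWI4 (-0.21) and SWI5 (-0.18), in dark for CLN1 (0.031), CLN3 (0.023), CLB1 (0.019), SWI4 (0.094) and SWI5 (0.038), and in set2Δ rph1Δ for CLB1 (0.037), CLB6 (0.048), SWI4 (0.021) and SWI5 (0.016). Called genes then went to 2460, 944 and 67. In no table did every pair of same-numbered libraries correlate above 0.1, the level set for pairing, although most libraries of the courses correlated best with their own number: correlations of same-numbered deviations ran from -0.06 to 0.01 in WT and rph1Δ, -0.07 to 0.25 and 0.03 to 0.50 in the RNA courses into light and dark, and -0.02 to 0.39, -0.26 to 0.51 and -0.18 to 0.43 in the H3K36me3 courses. Libraries that correlated best with their own number were 1 of 6, 9 of 11, 9 of 12 and, in the H3K36me3 courses, 12, 7 and 10 of 12, a hint from the data and not from the design. With a replicate block 2 members passed in rph1Δ (CLB1 and CLB2), where 702 of 6088 genes did. At 90 min of dark 1 passed (PCL1), where 782 of 5884 genes did. For the difference between RNA courses 1 passed (SWI4), where 162 of 5900 genes did. For the slope difference 7 passed, where 2056 of 4712 genes did, and 0 to 26 genes did on leaving out a replicate. The block moved no other count of members. All genes called at 40 min of light were 382 with TMM factors, 482 from recovered reads, 748 with the block and 0 to 6 without a replicate. At 60 min they were 83, 139, 328 and 0 to 2. At 60 min of dark they were 38, 42, 155 and 1 to 100, at 90 min 195 from reads, 782 with the block and 1 to 415 without a replicate, and for the difference between courses 56, 58, 162 and 0 to 61. The cause of these changes was not tested. Depth limits the low genes, and that of the H3K36me3 libraries is unknown.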
